A study of Mus musculus with 12 samples.

Results

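The genes described here encode the proteins of the mitochondrial ribosome. They were chosen by symbol, as Mrpl or Mrps followed by a number and at most 1 letter, with at least 100 counts in all over 12 libraries. Of the 56980 gene IDs in the count table, 78 carried such a symbol and 77 passed, 48 of the large subunit (Mrpl) and 29 of the small subunit (Mrps). All 77 were among the 16648 genes with enough counts to be tested. The gene that did not pass was Mrpl53, with 0 counts in every library, and the members nearest above the minimum were Mrps18c with 3905 and Mrpl55 with 4019 counts. A count of 0 allows up to 3 counts, or 0.0714 to 0.106 CPM (counts scaled to library size) by library. Annotated genes other than Mrpl53 cover 88.0% of its exon bases, and its same-strand neighbour Gm42688 had 359 counts.

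The cells were NIH/3T3, a mouse fibroblast line of embryonic origin that is labelled wild type. RNA was taken after 8 h with carfilzomib (CFZ, 200 nM), with doxorubicin (DOX, 5 µM), with both drugs at these doses (CFZ-DOX), or with the vehicle alone (DMSO), with 3 libraries in each group. Carfilzomib is an irreversible proteasome inhibitor, and doxorubicin, an anthracycline, inserts itself between DNA bases and traps topoisomerase II on DNA. All groups are 1 cell line at 1 time point, and no label states that replicates came from separate cultures, so p-values measure the spread between these libraries, which may be technical.

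The mitochondrial ribosome translates the few messenger RNAs that the mitochondrial genome encodes, which specify core subunits of the respiratory chain and of ATP synthase. Its ribosomal RNAs come from mitochondrial DNA, whereas all of its proteins are encoded in the nucleus, made in the cytosol and imported. Many of these proteins descend from bacterial ribosomal proteins, and others were added during the evolution of mitochondria. The proteins assemble into a small subunit that reads the codons and a large subunit that forms peptide bonds. Nuclear respiratory factors, ETS family proteins and YY1 are the transcription factors usually named for such genes.

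The libraries held 28278879 to 42033993 counts, and each of 10 fibroblast markers exceeded 10 CPM in at least 1 library. These 10 differed between groups and not in 1 direction. Against DMSO, 0 were called higher and 3 lower with CFZ (14.4% and 14.4% of all genes). With DOX 3 were higher and 2 lower (36.1% and 31.3%), and with CFZ-DOX 7 and 2 (39.3% and 35.7%). Markers of other cell types reached at most 3.64 CPM for 5 epithelial and 2.82 CPM for 4 endothelial genes. The endothelial Pecam1 was at 1.31 to 2.63 CPM in DOX, up to 2.58 CPM in CFZ-DOX and 0.0598 to 0.226 CPM in DMSO libraries. Of 4 neural markers Tubb3 had 13.6 to 28.6 CPM over all libraries, and Gfap had 2.19 to 5.16 CPM in DOX, 2.90 to 9.16 CPM in CFZ-DOX and 0.0645 to 0.249 CPM in DMSO libraries. The summed level of 4 leukocyte markers was 2.74 to 5.53 CPM in DOX, 8.43 to 15 CPM in CFZ-DOX and 1.32 to 1.58 CPM in DMSO libraries. Nearly all of this was Cd68, while Ptprc did not exceed 0.247 CPM and Adgre1 0.0522 CPM. The summed level of 4 muscle markers was 13.4 to 24.1 CPM in DOX, 14.5 to 25.2 CPM in CFZ-DOX and 7.62 to 9.39 CPM in DMSO libraries, nearly all of it Acta1, with Myod1 at most 0.0261 CPM. The part of these markers in the results was not tested. DOX 3 and CFZ-DOX 3 stood apart from their groups on the third principal component of all genes (4.64% of variance), and counts with doxorubicin are therefore also given without both. Every member called in the 5 comparisons with a doxorubicin group kept its call and direction without them. Both were chosen for standing apart, so leaving them out tends to narrow the spread, and this is no independent check. When each single library was left out in turn, 15 of 21 higher and 20 of 29 lower calls held for DOX against DMSO. For CFZ-DOX against DMSO 18 of 23 and 28 of 32 held, and against DOX 1 of 6 and 4 of 8.

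The members differed in level under DMSO. The mean CPM, scaled with the trimmed mean of M values (TMM), ranged over the 77 genes between 7.21 and 81.2 with a median of 29.8. Per length of the annotated exons, Mrpl12, a protein of the stalk that recruits translation factors and that also binds the mitochondrial RNA polymerase, was highest at 50.2 ± 4.03 RPKM (CPM per kilobase of exon, SD, n = 3). Mrps15, a homologue of bacterial S15, followed at 38.9 ± 2.62 RPKM and Mrps23, a protein without a bacterial counterpart, at 37.7 ± 1.05 RPKM, and their libraries overlapped. The lowest were Mrpl33 (2.23 ± 0.102 RPKM), Mrps35 (2.57 ± 0.220 RPKM) and Mrpl23 (3.44 ± 0.235 RPKM). The exon length of a gene is the union over its annotated transcripts, 7326 bases for Mrpl33, 8631 for Mrps35 and 4883 for Mrpl23 against 1532 for Mrpl12, so a long annotated transcript lowers the value per length.

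The summed output of the family changed little with either drug while single members moved far apart. The 77 genes took 0.279 ± 0.0133% of the library counts with CFZ, 0.258 ± 0.0174% with DOX, 0.241 ± 0.0269% with CFZ-DOX and 0.281 ± 0.0138% with DMSO (SD, n = 3 each). The shares of single libraries were 0.240%, 0.274% and 0.260% with DOX and 0.211%, 0.253% and 0.261% with CFZ-DOX, against 0.265%, 0.286% and 0.291% with DMSO. The DOX libraries overlapped the DMSO libraries, and the CFZ-DOX libraries lay below all of them. These are shares of sequenced RNA: fewer cells and less RNA per cell cannot be told apart in bulk libraries. The ratio of large to small subunit counts was 1.85 ± 0.00839 with CFZ, 1.99 ± 0.0348 with DOX, 1.98 ± 0.0244 with CFZ-DOX and 1.91 ± 0.0177 with DMSO. By symbol, all 3 CFZ libraries were below and all 6 libraries with doxorubicin were above the DMSO libraries in this ratio. Mrps18a and Mrps30 belong to the large subunit by structure. With both moved and Mrps36 left out, large subunit genes took 0.1899% with CFZ and 0.1901% with DMSO. Small subunit genes then took 0.08836% with CFZ and 0.08902% with DMSO, so the mean CFZ ratio was no longer below that of DMSO.

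**Figure D1:**
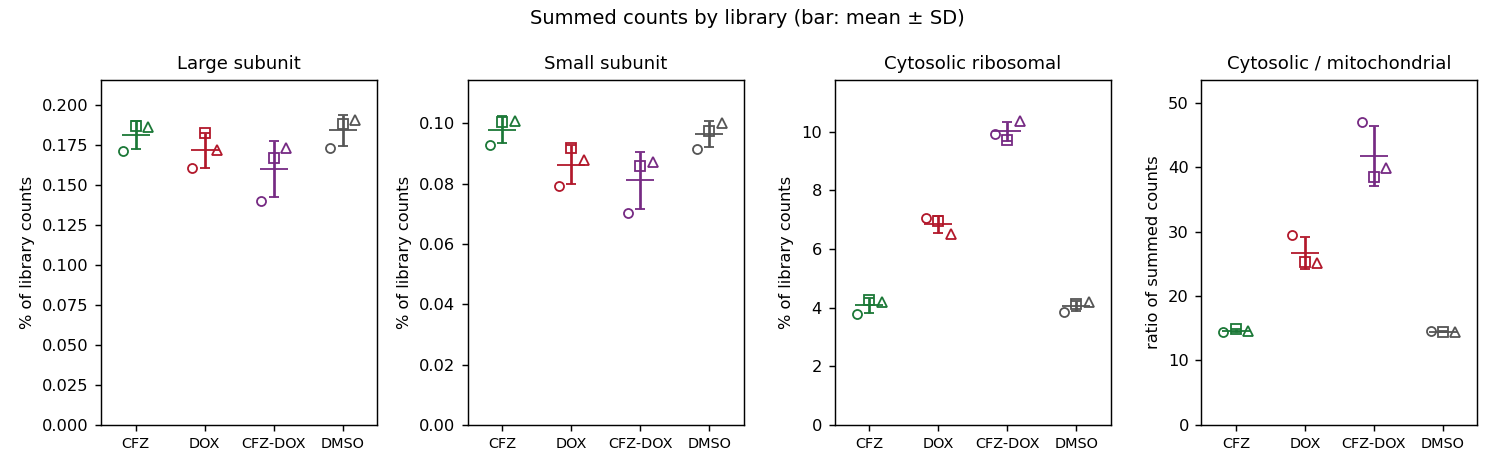
Summed counts of the 48 large and 29 small subunit genes and of 76 cytosolic ribosomal protein genes as a percentage of library counts, and the ratio of cytosolic to mitochondrial counts, by library; symbols are replicates 1 to 3 and bars are mean ± SD. The mitochondrial shares stay near those of DMSO, whereas the cytosolic share is 6.85% in DOX and 10.0% in CFZ-DOX libraries, with 4.06% in DMSO libraries.

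The genes of the cytosolic ribosome behaved differently. In CFZ libraries 4.08 ± 0.253% of all counts lay in 76 genes of cytosolic ribosomal proteins. The share was 6.85 ± 0.290% in DOX, 10.0 ± 0.332% in CFZ-DOX and 4.06 ± 0.179% in DMSO libraries. Their summed counts were 14.6 ± 0.250 times those of the mitochondrial members with CFZ, 26.6 ± 2.48 times with DOX, 41.8 ± 4.63 times with CFZ-DOX and 14.5 ± 0.0752 times with DMSO. This ratio is taken within a library and does not depend on scaling, and every library with doxorubicin was above every library without it. The spread between genes differed as well. The SD of the log2 fold change over the mitochondrial members was 0.454 in the comparison of CFZ with DMSO, 0.783 for DOX and 1.05 for CFZ-DOX. Over the cytosolic genes it was 0.119, 0.265 and 0.246, and over all 16648 genes 0.884, 1.84 and 2.10. Of the 76 cytosolic genes, 75 were called higher and 1 lower with DOX (median log2 fold change 0.91), and 75 were called higher with CFZ-DOX (median 1.66). The one lower with DOX was Rps10, at -1.16, named here after its value was seen. With CFZ alone 0 of the 76 were called in edgeR's test, 0 had an unadjusted p under 0.05 and 60 had a fold change above 0 (median 0.07). DESeq2 called 1 higher and limma-voom 0.

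**Figure D2:**
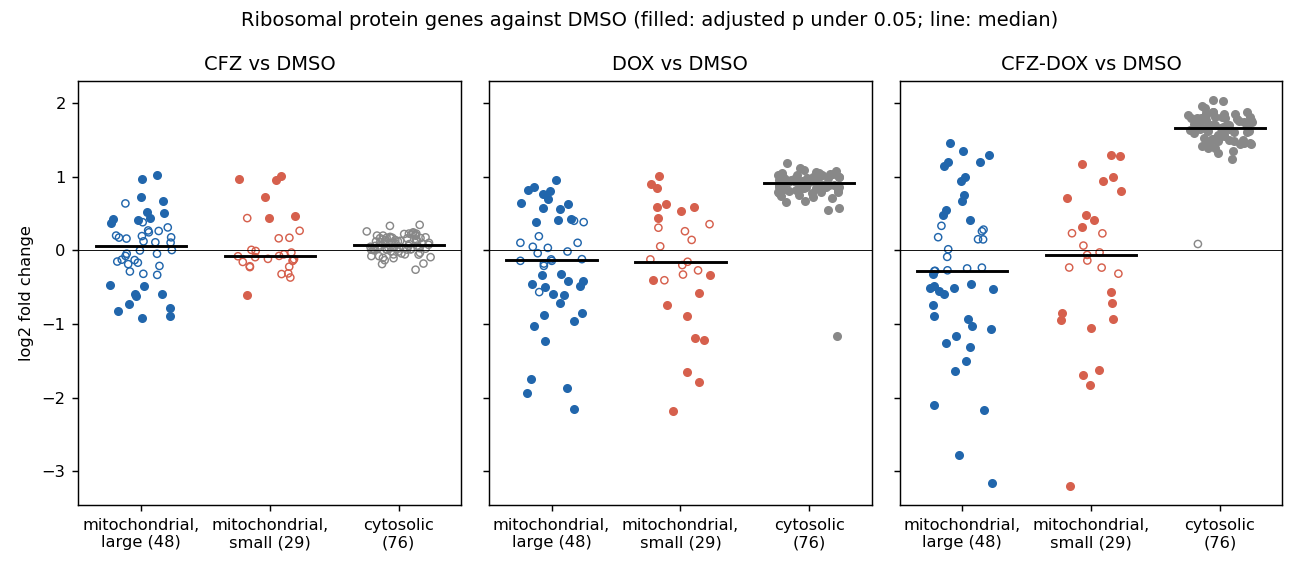
Log2 fold change against DMSO of each large subunit, small subunit and cytosolic ribosomal protein gene for CFZ, DOX and CFZ-DOX (n = 3 libraries per group, edgeR); filled points have an adjusted p under 0.05 and the line is the median. With doxorubicin the mitochondrial members spread between -2.18 and 1.01 (DOX) and between -3.20 and 1.46 (CFZ-DOX), while the cytosolic genes other than Rps10 sit together above 0.

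Carfilzomib alone left the family median at -0.03 on the log2 scale, against -0.01 over all genes, and moved single members in both directions. At an adjusted p under 0.05 in edgeR's quasi-likelihood test, 16 of 77 members were higher and 11 lower than with DMSO. Over all genes 14.4% were higher and 14.4% lower, so neither share among the members was far from that of other genes. Large subunit genes split 10 higher and 10 lower of 48, and small subunit genes 6 higher and 1 lower of 29.

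The highest member with CFZ was Mrpl1 (chr5:96357352-96414586, GRCm39), the homologue of a protein of the bacterial L1 stalk. It had 33.6, 38.9 and 44.2 CPM in CFZ libraries, against 18, 19.3 and 20.5 CPM in DMSO libraries. Every CFZ library was above every DMSO library, and the log2 fold change was 1.02 ± 0.19 (SE, edgeR adjusted p = 0.00118). Mrps18c followed with 13.4, 14.1 and 16.1 CPM in CFZ libraries, against 6.71, 7.03 and 7.90 CPM in DMSO libraries (log2 fold change 1.01 ± 0.17, edgeR adjusted p = 0.000537). Mrps31, a small subunit protein specific to mitochondria, had 34.3, 39.5 and 40.2 CPM in CFZ libraries, against 20, 18.6 and 19.4 CPM in DMSO libraries (0.97 ± 0.24, edgeR adjusted p = 0.00659). Mrpl47 and Mrps22 rose by a similar amount, 0.96 each. Of the 77 members, 4 were higher under all 5 scalings tried (Mrpl1, Mrps18c, Mrpl47 and Mrps18a), against 1317 of all 16648 tested genes (7.91%).

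The members that fell with CFZ were nearly all of the large subunit. Mrpl36, the homologue of bacterial L36, had 7.44, 7.67 and 7.02 CPM in CFZ libraries, against 12.9, 16.4 and 12.4 CPM in DMSO libraries. The groups did not overlap, and the log2 fold change was -0.92 ± 0.21 (SE, edgeR adjusted p = 0.00502). Mrpl34 (-0.89 ± 0.20) and Mrpl57 (-0.83 ± 0.21) were next, the call for Mrpl57 ending at an adjusted p of 0.0513 without CFZ 3. Mrpl12 had 42, 52.2 and 44.6 CPM in CFZ libraries, against 70.1, 82.2 and 78.5 CPM in DMSO libraries, which put every CFZ library below every DMSO library (-0.73 ± 0.14, edgeR adjusted p = 0.00162). Mrpl18, a member of the family that binds 5S ribosomal RNA in bacteria, fell by 0.78 ± 0.12 (edgeR adjusted p = 0.000342). Of the 77 members, the same 11 were lower under all 5 scalings, against 1993 of all 16648 tested genes (12%). Of the 11, 10 belonged to the large subunit, Mrps21 being the other.

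The count of members higher with CFZ depended on scaling: with library size it was 5, with the cytosolic ribosomal protein genes 4 and with the upper quartile 12, beside 11, 11 and 12 lower members. It was 9 without CFZ 3 and 8 without DMSO 1, and the lower members numbered 6 or 7 without any one of the 6 libraries. Among the lower members Mrps21 (adjusted p 0.0581 to 0.109) and Mrpl33 (0.0749 to 0.139) lost their call without any one library. With replicates paired by number, Mrpl46 was also called higher with CFZ (log2 fold change 0.64, adjusted p 0.0177, and 0.0798 unpaired).

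With doxorubicin members were called in both directions, as were genes in general. Of 77 members 21 were higher and 29 lower with DOX than with DMSO, and 27 were not called. Over all genes 36.1% were higher and 31.3% lower. The median log2 fold change of the members was -0.14, against 0.14 over all genes. Of the called members 11 were lower and 1 was higher by at least 2 times. The matching share of all genes was not counted, and their log2 fold changes spread more widely (SD 1.84 against 0.783 over the members). With the combination, 23 members were higher and 32 lower than with DMSO, against 39.3% and 35.7% of all genes, with a median of -0.23 against 0.09.

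The lowest member with doxorubicin was Mrps2 (chr2:28358078-28361190, GRCm39), a small subunit protein with a bacterial homologue of the same name. It had 5.82, 6.36 and 10.4 CPM in DOX libraries and 3.45, 2.71 and 4.92 CPM in CFZ-DOX libraries, against 31.6, 36.6 and 34.0 CPM in DMSO libraries. No library with doxorubicin came near the DMSO libraries, and DOX 3 and CFZ-DOX 3 were the highest of their groups. The log2 fold change was -2.18 ± 0.23 with DOX (SE, edgeR adjusted p = 1.95e-06) and -3.20 ± 0.25 with CFZ-DOX (edgeR adjusted p = 5.85e-08). With CFZ alone Mrps2 had 36.4, 40.8 and 37.3 CPM.

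Mrpl44 (chr1:79753735-79759162, GRCm39), a large subunit protein with a ribonuclease III fold, moved by nearly as much. It had 2.98, 2.48 and 8.01 CPM in DOX libraries and 1.69, 1.17 and 3.8 CPM in CFZ-DOX libraries, against 19.1, 21.9 and 19.2 CPM in DMSO libraries. The third library was again the highest of each doxorubicin group, still below all DMSO libraries. The log2 fold change of Mrpl44 was -2.15 ± 0.40 with DOX (SE, edgeR adjusted p = 0.000299) and -3.16 ± 0.43 with CFZ-DOX (edgeR adjusted p = 1.21e-05). Without DOX 3 and CFZ-DOX 3 it was -2.91 and -3.85. Mrpl50, a large subunit protein specific to mitochondria, had 11.3, 12.1 and 9.51 CPM in DOX libraries and 6.11, 4.13 and 8.05 CPM in CFZ-DOX libraries, against 39.7, 44.3 and 41.7 CPM in DMSO libraries. Its groups did not overlap (log2 fold change -1.93 ± 0.20 with DOX and -2.78 ± 0.21 with CFZ-DOX).

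Mrpl1 and Mrps22, which were higher than DMSO with CFZ, were far below it with DOX. Mrps22, a small subunit protein specific to mitochondria, had 41.8, 48.9 and 52.5 CPM in CFZ libraries and 5.47, 6.54 and 9.41 CPM in DOX libraries, against 23.8, 25.4 and 24.6 CPM in DMSO libraries. Its groups did not overlap, and its log2 fold change was 0.96 ± 0.21 with CFZ and -1.78 ± 0.22 with DOX. Mrpl1 had 3.84, 5.65 and 6.32 CPM in DOX libraries, and 6.0, 6.28 and 8.05 CPM in CFZ-DOX libraries (log2 fold change -1.87 ± 0.20 with DOX and -1.50 ± 0.20 with CFZ-DOX).

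The highest member with DOX was Mrps21 (chr3:95769946-95778831, GRCm39), the homologue of bacterial S21. It had 49.6, 42.5 and 32.1 CPM in DOX libraries and 60.4, 53.2 and 36.4 CPM in CFZ-DOX libraries, against 19.7, 21.2 and 20.6 CPM in DMSO libraries. Both doxorubicin groups lay above all DMSO libraries and overlapped each other, and the third library was the lowest of each. The log2 fold change was 1.01 ± 0.19 with DOX (SE, edgeR adjusted p = 0.000311) and 1.29 ± 0.19 with CFZ-DOX (edgeR adjusted p = 2.82e-05). Mrpl23 (0.96 ± 0.21), whose bacterial homologue lies at the peptide exit tunnel, and Mrps14 (0.90 ± 0.14) followed with DOX.

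With the combination Mrpl23 was highest, with 60.8, 42.3 and 35.6 CPM in CFZ-DOX libraries, against 15.5, 17.4 and 17.5 CPM in DMSO libraries (log2 fold change 1.46 ± 0.21, edgeR adjusted p = 2.49e-05). Mrpl13, the member with the highest CPM under DMSO, had 225, 215 and 181 CPM in CFZ-DOX libraries and 165, 161 and 118 CPM in DOX libraries, against 78.8, 81.4 and 83.3 CPM in DMSO libraries. Every library with doxorubicin was above every DMSO library (1.35 ± 0.15 with CFZ-DOX and 0.86 ± 0.14 with DOX). Mrps15 was higher by 1.30 ± 0.14 with CFZ-DOX. The 5 members with the highest CPM under DMSO (Mrpl13, Mrpl37, Mrpl12, Mrps7 and Mrps15) held 17.3 ± 0.234% of the members' counts with DOX, 19.7 ± 0.0607% with CFZ-DOX and 14.6 ± 0.443% with DMSO. Mrpl12 moved against Mrpl13 within this group, with 38.7, 44.4 and 35.4 CPM in DOX libraries and 28, 36 and 28.9 CPM in CFZ-DOX libraries (-0.96 ± 0.14 and -1.31 ± 0.15 against DMSO).

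**Figure D3:**
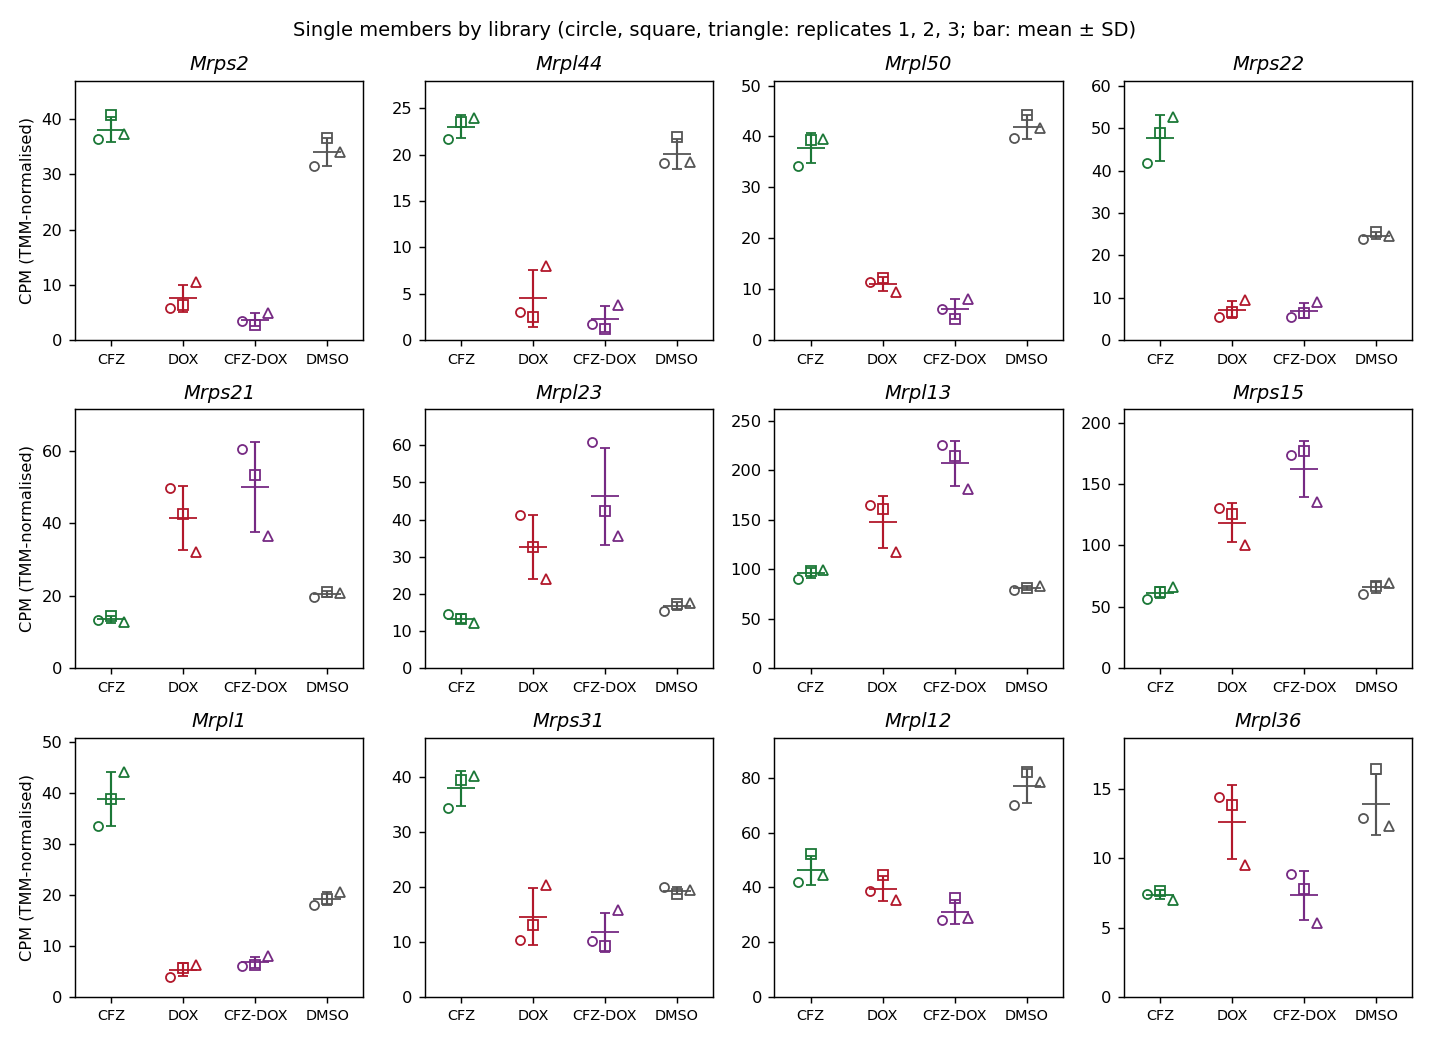
TMM-normalised CPM of 12 members in each library (circle, square and triangle are replicates 1, 2 and 3; bars are mean ± SD; groups CFZ, DOX, CFZ-DOX and DMSO). Mrps2, Mrpl44, Mrpl50 and Mrps22 lie low and Mrps21, Mrpl23, Mrpl13 and Mrps15 lie high in the doxorubicin groups, Mrpl1 and Mrps31 are highest with CFZ, and Mrpl12 is below DMSO in every treated group.

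The divergence between members did not rest on scaling, because a pair of genes can be compared within 1 library. The count of Mrps21 was 8.52, 6.69 and 3.09 times that of Mrps2 in DOX libraries and 17.5, 19.6 and 7.39 times in CFZ-DOX libraries, against 0.624, 0.578 and 0.606 times in DMSO libraries. The pair was taken for its opposite changes, so its ratio is given without a test. The direction of the higher members, by contrast, did depend on scaling. Scaled to the cytosolic ribosomal protein genes, 0 members were called higher and 61 lower with DOX, and 0 and 76 with CFZ-DOX. Scaled to the upper quartile, 34 were higher and 15 lower with DOX, and 37 and 19 with CFZ-DOX, and scaled to library size 16 and 41 with CFZ-DOX. These scalings moved the median of all genes: the ribosomal one by -0.87 in the comparison with DOX and -1.65 in that with CFZ-DOX, the upper quartile by 0.38 and 0.50, library size by -0.12 and -0.35, and size factors by 0.10 for CFZ-DOX.

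Under all 5 scalings 15 members were lower and 0 higher with DOX, against 22.3% and 13.4% of all genes. With CFZ-DOX 19 were lower and 0 higher, against 24.8% and 11.1% of all genes. The 0 in both comparisons follows from the ribosomal scaling alone, under which 0 members were called higher, and is no separate result. The 15 included Mrps2, Mrpl44, Mrpl50, Mrpl1, Mrps22, Mrpl19, Mrps18b, Mrpl9, Mrps27 and Mrpl12. Without DOX 3 and CFZ-DOX 3, 27 members were higher and 32 lower with DOX, and 27 and 38 with CFZ-DOX.

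**Figure D4:**
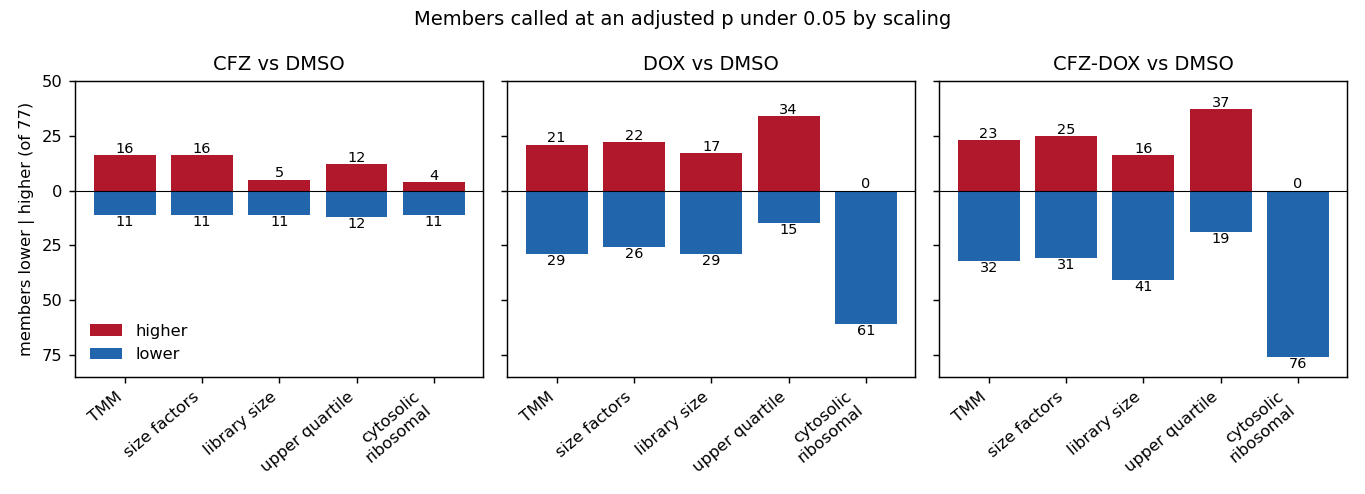
Number of the 77 members called higher (upward bars) and lower (downward bars) than DMSO at an adjusted p under 0.05 in edgeR, under 5 scalings, for CFZ, DOX and CFZ-DOX. With doxorubicin both directions are seen under 4 scalings, and under scaling to the cytosolic ribosomal protein genes only lower members are called, 61 with DOX and 76 with CFZ-DOX.

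Both subunits held members that rose and members that fell with DOX: 13 higher and 19 lower of 48 in the large subunit, and 8 and 10 of 29 in the small. The small subunit proteins were also counted by origin, beside 36.1% of all genes higher and 31.3% lower. Of 16 with a bacterial homologue 5 were higher and 2 lower (median 0.20), whereas of 10 specific to mitochondria 2 were higher and 7 lower (median -0.82). The 7 were Mrps22 (-1.78), Mrps18b (-1.65), Mrps27 (-1.22), Mrps35 (-1.18), Mrps26 (-0.90), Mrps34 (-0.75) and Mrps23 (-0.34), the last not called without DOX 3. Mrps18b is related to bacterial S18 but was counted as specific to mitochondria, as was Mrps18a. Their relative Mrps18c was counted with the bacterial homologues, so the class counts depend on this choice. In the large subunit, 9 were higher and 12 lower of 30 with a bacterial homologue, and 4 and 8 of 20 specific to mitochondria. Unlike the 48 and 29 by symbol, these classes go by structure. They place Mrps18a and Mrps30 in the large subunit and leave out Mrps36. The difference between the classes was not tested. Mrps34 and Mrps25 share 77.8% and 69.8% of their exon bases with other annotated genes, and reads from these could not be told apart from theirs if counting ignored strand. Genes on the same strand cover 37.0% of the exon bases of Mrps34 and 0% of those of Mrps25. For that part of Mrps34 the same would hold if counting kept strand.

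Mitochondria have 3 proteins related to bacterial S18, and their genes moved apart. Mrps18a is part of the large subunit in spite of its name, and Mrps18b and Mrps18c belong to the small subunit. With CFZ, Mrps18a had 47.0, 48.4 and 49.9 CPM, against 27.5, 29.7 and 31.2 CPM with DMSO (log2 fold change 0.72 ± 0.15, edgeR adjusted p = 0.00311). Mrps18c was also higher, as given above, and Mrps18b was at -0.06 ± 0.15 (adjusted p 0.824). With DOX it was Mrps18b that fell, with 9.26, 9.48 and 7.46 CPM, against 26.8, 29.5 and 25.9 CPM with DMSO (-1.65 ± 0.15, edgeR adjusted p = 4.69e-07). Mrps18a was at -0.16 ± 0.15 and Mrps18c at 0.31 ± 0.17 with DOX, both uncalled. With CFZ-DOX Mrps18a had 24.1, 26.0 and 20.9 CPM, below all DMSO libraries but uncalled (-0.32 ± 0.15, adjusted p 0.0761), Mrps18b was at -1.63 ± 0.15 and Mrps18c at -0.03 ± 0.17. Without DOX 3 and CFZ-DOX 3, Mrps18a was called lower with CFZ-DOX (-0.29, adjusted p 0.0117) and Mrps18c higher with DOX (0.35, adjusted p 0.0445). The count of Mrps18c relative to that of Mrps18b was 0.555 ± 0.0665 with CFZ, 1.02 ± 0.138 with DOX, 0.798 ± 0.0885 with CFZ-DOX and 0.265 ± 0.0360 with DMSO (SD, n = 3 each). The libraries of every treated group were above those of DMSO in this ratio. Other genes cover 30.5% of the exon bases of Mrps18b and 23.2% of those of Mrps18c.

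Other members with a role of their own varied. Mrps12, which lies at the decoding site, had 9.02, 9.54 and 11.9 CPM in DOX libraries, against 10.1, 12.6 and 12.3 CPM in DMSO libraries, and these overlapped (log2 fold change -0.20 ± 0.18, adjusted p 0.340, but -0.37 and 0.0240 without DOX 3 and CFZ-DOX 3). Mrpl58, a peptidyl-tRNA hydrolase built into the large subunit, was at -0.21 ± 0.18 with DOX and -0.27 ± 0.18 with CFZ-DOX, uncalled in both. Of the stalk base proteins, Mrpl10 was at 0.05 ± 0.17 with DOX, and Mrpl11 at -0.12 ± 0.18, while with CFZ-DOX Mrpl11 fell by 0.52 ± 0.18 (adjusted p 0.0160, but 0.0566 without CFZ-DOX 3). Mrps36, a component of a dehydrogenase complex of the citric acid cycle, was higher with DOX (0.58 ± 0.19) and CFZ-DOX (0.94 ± 0.19). The call with DOX was lost without DOX 1, DOX 2 or DMSO 2, with a highest adjusted p of 0.0721. Mrps30, in the large subunit in spite of its name, was higher with CFZ (0.44 ± 0.15) and lower with DOX (-0.40 ± 0.15), with adjusted p up to 0.185 and 0.114 when a single library was left out. Mrpl2 and Mrpl3 lie near the peptidyl transferase centre. Mrpl3 was higher with CFZ (0.37 ± 0.13, not called without any one library) and lower with CFZ-DOX (-0.49 ± 0.13). Mrpl2 was at -0.32 ± 0.13 with DOX, a call lost without DOX 3 or any one DMSO library (highest adjusted p 0.401). Mrps5 was not called against DMSO in any group. Mrps7 was at -0.33 ± 0.15 with DOX (adjusted p 0.0614, and 0.0225 with replicates paired by number) and at -0.56 ± 0.15 with CFZ-DOX. In all, 9 of the 77 members were called in none of the comparisons with DMSO. The matching share of all genes was not counted, so this number does not set the members apart from other genes.

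Members are small genes that often share a start region with a neighbour. Their median span was 7905 bases (789 to 121773) on 17 chromosomes, against 23018.5 bases over 12986 tested protein-coding genes. A gene on the other strand started within 1000 bases for 33 members (42.9%), against 2125 of the protein-coding genes (16.4%). Members higher with CFZ had a median span of 11602 bases, and members lower with CFZ of 4453 bases. Across genes, the Spearman correlation of span with log2 fold change was 0.37 for CFZ over the 77 members and 0.07 over all protein-coding genes. For DOX it was 0.14 and -0.26, and for CFZ-DOX 0.19 and -0.29. These are descriptions over genes measured in the same libraries.

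One pair of members lies head to head. Mrps11 (chr7:78432867-78442737, plus strand, GRCm39) encodes a small subunit protein with a bacterial homologue. Mrpl46 (chr7:78424984-78433279, minus strand) encodes a large subunit protein specific to mitochondria. The gene models overlap by their first 413 bases, and 7.97% of the exon bases of Mrps11 and 12.2% of those of Mrpl46 lie in the other gene. Promoter windows of both are given below because these 2 genes start close together on opposite strands and moved apart. The 2 windows overlap only from base 78783040 to base 78783180 of chromosome 7, so the printed sequences are not 1 common stretch. This follows from where the windows were cut. Whether the 2 genes share a promoter was not tested. Windows of Mrps2 and Mrps21 are given because these were the lowest and the highest member with DOX. They are RefSeq sequences of build GRCm38.p6, which is not the build of the count table, from 250 bases before to 50 after the annotated start, 5′ to 3′ on the strand of the gene. Capitals mark matches to the motifs described after them.
Mrps11, chr7:78782881-78783180, plus strand: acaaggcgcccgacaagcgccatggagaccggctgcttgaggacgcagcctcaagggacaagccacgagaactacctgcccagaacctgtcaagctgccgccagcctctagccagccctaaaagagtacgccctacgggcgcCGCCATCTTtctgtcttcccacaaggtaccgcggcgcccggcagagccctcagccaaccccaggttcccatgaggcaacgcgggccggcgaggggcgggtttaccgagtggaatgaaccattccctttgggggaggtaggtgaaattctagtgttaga
Mrpl46, chr7:78783040-78783339, minus strand: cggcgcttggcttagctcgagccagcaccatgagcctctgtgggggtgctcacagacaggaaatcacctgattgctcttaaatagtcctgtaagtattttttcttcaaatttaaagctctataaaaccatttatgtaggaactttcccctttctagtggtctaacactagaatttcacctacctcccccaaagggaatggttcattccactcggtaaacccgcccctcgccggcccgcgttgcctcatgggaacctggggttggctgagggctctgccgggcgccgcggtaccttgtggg
Mrps2, chr2:28467816-28468115, plus strand: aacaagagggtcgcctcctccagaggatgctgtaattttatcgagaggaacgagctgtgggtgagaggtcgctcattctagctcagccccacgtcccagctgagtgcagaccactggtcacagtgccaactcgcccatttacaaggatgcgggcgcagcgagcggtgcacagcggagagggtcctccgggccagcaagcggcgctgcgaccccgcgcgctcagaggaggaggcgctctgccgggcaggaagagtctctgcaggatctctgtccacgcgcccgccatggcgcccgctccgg
Mrps21, chr3:95871465-95871764, minus strand: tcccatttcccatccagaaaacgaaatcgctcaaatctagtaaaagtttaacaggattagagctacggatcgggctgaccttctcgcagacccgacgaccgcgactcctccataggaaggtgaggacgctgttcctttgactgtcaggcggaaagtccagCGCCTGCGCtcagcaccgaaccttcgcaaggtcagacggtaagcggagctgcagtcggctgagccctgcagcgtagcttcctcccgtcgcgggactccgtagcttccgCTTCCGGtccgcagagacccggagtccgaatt

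The motifs were searched on both strands. They were GCGCANGCG for nuclear respiratory factor 1 (NRF1), CCGGAAG for ETS proteins and AAGATGGCG for YY1. The E-box, CACGTG, was searched too but is not in capitals. The same holds for the TATA box, which was searched as TATAAA. Windows were found for 68 of the 77 members. The NRF1 letters were present in 16 of the 68 (23.5%), against 7.03% of 27025 genes. The ETS letters were present in 25 (36.8%), against 9.93%, and the YY1 letters in 8 (11.8%), against 1.64%. The E-box letters were present in 5 (7.35%), against 8.09%, and the TATA letters in 5 (7.35%), against 15.7%. The Mrps11 window holds the YY1 letters at base 143, outside the part it shares with the Mrpl46 window. The Mrps21 window holds the NRF1 letters at base 161 and the ETS letters at base 269. Neither the Mrpl46 nor the Mrps2 window holds the letters of these 3 motifs. By direction with DOX, the ETS letters stood in 6 of 18 higher, 9 of 25 lower and 10 of 25 uncalled members with a window, the NRF1 letters in 3, 8 and 5, and the YY1 letters in 3, 2 and 3. A match describes letters and shows no binding.

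Mrps11 rose and Mrpl46 fell with CFZ-DOX. Mrps11 had 34.3, 36.4 and 34.5 CPM in DOX libraries and 31.2, 33.2 and 31.7 CPM in CFZ-DOX libraries, against 23.3, 25.6 and 23.6 CPM in DMSO libraries. Mrpl46 had 8.29, 9.11 and 13.2 CPM in DOX libraries and 5.6, 4.90 and 11.2 CPM in CFZ-DOX libraries, against 13.8, 15.7 and 15.9 CPM in DMSO libraries. Neither gene overlapped with DMSO in either group. Mrps11 rose by 0.54 ± 0.12 with DOX and 0.41 ± 0.12 with CFZ-DOX (SE, edgeR adjusted p = 0.00166 and 0.00853). Scaled to the cytosolic ribosomal protein genes, Mrps11 was instead at -0.33 and -1.24. Mrpl46 was at -0.57 ± 0.26 with DOX (adjusted p 0.0663, but 0.0132 with replicates paired by number and 1.65e-05 without DOX 3 and CFZ-DOX 3) and fell by 1.06 ± 0.26 with CFZ-DOX (adjusted p 0.00215). Within libraries the count of Mrps11 was 0.995, 1.04 and 0.887 times that of Mrpl46 with CFZ, 4.13, 3.99 and 2.61 times with DOX and 5.58, 6.79 and 2.84 times with CFZ-DOX, against 1.69, 1.63 and 1.48 times with DMSO. The third library had the lowest ratio in every group.

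**Figure D5:**
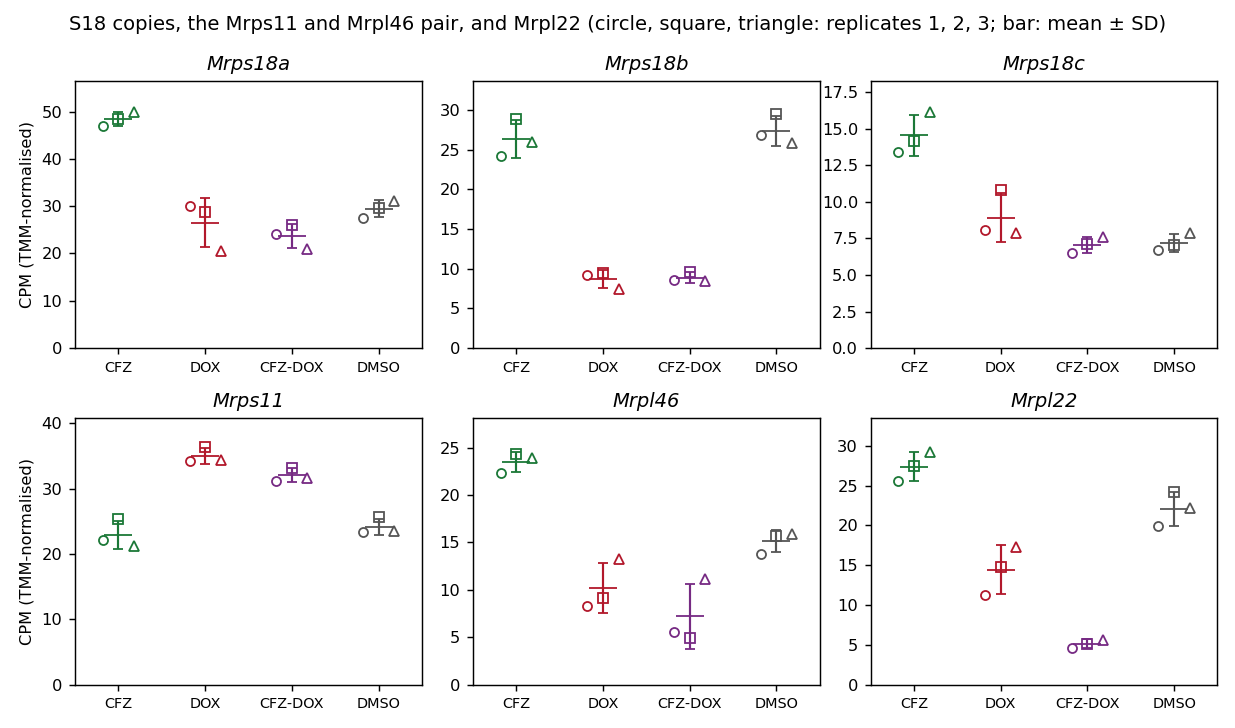
TMM-normalised CPM of the 3 S18-related members, of the head-to-head pair Mrps11 and Mrpl46 and of Mrpl22 in each library (circle, square and triangle are replicates 1, 2 and 3; bars are mean ± SD). Mrps18b lies at 7.46 to 9.64 CPM in the doxorubicin groups and 25.9 to 29.5 CPM with DMSO, Mrps11 lies above and Mrpl46 below DMSO there, and Mrpl22 is lowest with both drugs.

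Against doxorubicin alone, the combination changed few members. At an adjusted p under 0.05, 6 of 77 were higher and 8 lower with CFZ-DOX than with DOX, against 10.3% and 12% of all genes, and the median was 0.02 against 0.03. The clearest was Mrpl22, whose bacterial homologue lines the peptide exit tunnel, with 4.60, 5.18 and 5.67 CPM in CFZ-DOX libraries, against 11.3, 14.8 and 17.3 CPM in DOX libraries. The groups were far apart, and the log2 fold change was -1.49 ± 0.18 (SE, edgeR adjusted p = 0.000127). Mrps2 fell further by 1.02 ± 0.24 (adjusted p 0.00817). Mrpl44, at -1.01, was not called (adjusted p 0.0981) but was with replicates paired by number (0.0351). In the other direction Mrpl9 had 21.2, 25.5 and 27.7 CPM in CFZ-DOX libraries, against 13.6, 17.2 and 15.8 CPM in DOX libraries (0.68 ± 0.15, adjusted p 0.00681). Mrpl33 and Mrpl30 were higher by 0.53 each, with adjusted p up to 0.166 and 0.0723 when a single library was left out. Scaled to the cytosolic ribosomal protein genes, Mrpl9, Mrpl33 and Mrpl30 were at -0.09, -0.25 and -0.24.

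These counts were sensitive to libraries and scaling. With replicates paired by number, 11 members were higher and 14 lower, and without DOX 3 and CFZ-DOX 3 they were 11 and 18. The number higher was 1 without CFZ-DOX 1, 2 without CFZ-DOX 2, 12 without CFZ-DOX 3, 3 without DOX 2 and 1 without DOX 3. The number lower was 5 without CFZ-DOX 1 and 14 without DOX 3. Scaled to library size 0 were higher and 16 lower, to size factors 12 and 6, to the upper quartile 13 and 6, and to the cytosolic ribosomal protein genes 0 and 67.

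Set against carfilzomib alone, the combination showed the widest spread, as it did over all genes. The SD of the log2 fold change was 1.22 over the members and 2.18 over all genes. Of the 77 members 24 were higher and 38 lower with CFZ-DOX than with CFZ, against 40.4% and 36.9% of all genes, with a median of -0.26 against 0.09. Mrps2 was lowest (-3.36), followed by Mrpl44 (-3.36) and Mrps22 (-2.78). Mrps21 was highest (1.89), followed by Mrpl42, a large subunit protein specific to mitochondria (1.82), and Mrpl23 (1.79). Mrpl42 had 162, 158 and 128 CPM in CFZ-DOX libraries, against 40.4, 43.1 and 43.2 CPM in CFZ libraries, with no overlap. Scaled to the upper quartile 38 were higher and 20 lower, and scaled to the cytosolic ribosomal protein genes 0 and 70. Without DOX 3 and CFZ-DOX 3 the numbers were 27 and 40, and Mrpl44 was at -4.02.

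The interaction term asks whether the effect of both drugs differed from the sum of the single effects on the log2 scale. It was below 0 for 11 members and above 0 for 4 at an adjusted p under 0.05, against 11.2% and 8.46% of all genes, with a median of 0.05 against 0.04. Mrpl22 had the lowest value (-1.80 ± 0.24, edgeR adjusted p = 0.000313). It was at 0.31 ± 0.17 with CFZ (uncalled) and -0.61 ± 0.17 with DOX, but at -2.10 ± 0.18 with both. Mrps18c (-1.35 ± 0.24) and Mrps31 (-1.29 ± 0.33) had been raised by CFZ alone and were not raised by CFZ in the presence of DOX. Mrps31 had 10.1, 9.23 and 15.8 CPM in CFZ-DOX libraries and 10.4, 13 and 20.4 CPM in DOX libraries, which overlapped. Mrpl33 (1.02 ± 0.24), Mrpl42 (1.01 ± 0.21) and Mrpl52 (0.89 ± 0.27), the last a protein specific to mitochondria, had the highest values, although the interaction of Mrpl52 and its fall with CFZ were lost without some single libraries. Each was lower with CFZ and higher with CFZ-DOX than with DMSO.

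The interaction calls also moved with single libraries. The number above 0 was 11 without CFZ-DOX 3 and 2 without CFZ 1, CFZ 3, CFZ-DOX 1, CFZ-DOX 2, DOX 2 or any one DMSO library. The number below 0 was 7 without CFZ 2, CFZ 3 or any one DMSO library. Without DOX 3 and CFZ-DOX 3 the numbers were 14 above and 19 below 0. Scaled to the upper quartile they were 9 and 6, to size factors 7 and 9, to library size 5 and 7, and to the cytosolic ribosomal protein genes 0 and 40.

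The other parts of the mitochondrial translation machinery were counted from lists of known genes. With DOX 36.1% of all genes were higher and 31.3% lower, as given above. Of 5 mitochondrial ribosome proteins with other symbols, 3 were higher and 2 lower with DOX: Aurkaip1 (0.49) and Dap3 (0.43) were among the higher, and Gadd45gip1 (-1.14) and Ptcd3 (-0.57) were lower. Of 26 assembly and ribosomal RNA modification factors 2 were higher and 16 lower with DOX (median -0.74), and 2 and 19 with CFZ-DOX (median -0.97). The lowest with DOX were the helicase Ddx28, at 3.59 ± 1.96 CPM against 19.9 ± 1.01 CPM with DMSO (-2.46 ± 0.33), and Fastkd2, an RNA-binding protein of mitochondria (-2.05 ± 0.19). Of 16 translation factors 2 were higher and 6 lower with DOX, the initiation factor Mtif3 falling by 2.22 ± 0.29. With CFZ, where 14.4% of all genes were higher and 14.4% lower, 8 of the 26 assembly factors were higher and 3 lower. Of the 16 translation factors 2 were higher and 0 lower, the elongation factors Gfm1 (0.73) and Tufm (0.35).

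Regulators of mitochondrial biogenesis were mostly lower with doxorubicin. Of 13 tested, 9 were lower and 1 higher with DOX (median -1.30), against 31.3% and 36.1% of all genes. With CFZ-DOX 11 were lower and 1 higher (median -1.43), against 35.7% and 39.3%. Of the 13 tested, the same 9 were lower with DOX under all 5 scalings, against 22.3% of all tested genes. The transcription factor gene Nrf1 was at 6.92 ± 0.366 CPM with DOX, against 40.3 ± 2.28 CPM with DMSO (-2.54 ± 0.14). The coactivator Pprc1 was at 20.3 ± 2.95 CPM, against 128 ± 10.1 CPM (-2.65 ± 0.15). Tfam, which packages mitochondrial DNA and starts its transcription, was at 5.93 ± 1.99 CPM with CFZ-DOX, against 46.2 ± 1.24 CPM with DMSO (-2.96 ± 0.25). Tfb2m, a mitochondrial transcription factor, was the one that rose (0.40 ± 0.15 with DOX).

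Of the 13 messenger RNAs of the mitochondrial genome 5 were higher and 0 lower in edgeR's test in both doxorubicin groups, which is near the share of all genes called higher (36.1% with DOX and 39.3% with CFZ-DOX), and 0 were higher under all 5 scalings. With DOX 6 had an unadjusted p under 0.05, and DESeq2 and limma-voom each called 5 higher and 1 lower. The lower one was mt-Cytb, a subunit of respiratory complex III, at -0.42 ± 0.18 in edgeR (adjusted p 0.0563), with an adjusted p of 0.0316 in DESeq2 and 0.0399 in limma-voom. With CFZ 0 of the 13 were called by any of the 3 tools, and 0 had an unadjusted p under 0.05 in edgeR. Both mitochondrial ribosomal RNAs were higher with DOX. In these libraries mt-Rnr1, the small subunit RNA, was at 2269 ± 893 CPM with DOX and 4036 ± 1400 CPM with CFZ-DOX, against 534 ± 101 CPM with DMSO (2.09 ± 0.31 and 2.92 ± 0.32). The level of mt-Rnr2, the large subunit RNA, was at 3138 ± 669 CPM with DOX and 5164 ± 616 CPM with CFZ-DOX, against 1477 ± 62.1 CPM with DMSO (1.09 ± 0.19 and 1.81 ± 0.19). Polyadenylated RNA was sequenced, so these values are of the captured part of the ribosomal RNA. Under all 5 scalings 1 of the 2 was higher with DOX.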

How the data were processed

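The deposited table holds raw read counts per gene for 12 libraries of polyadenylated RNA, and the deposited counts were used unchanged. Reads had been trimmed with Trimmomatic 0.39, aligned with STAR 2.7.9a to GRCm39 and counted with featureCounts of Subread 2.0.2, per the submitters' processing notes. The annotation release, the strand setting and the handling of read pairs are not given in the sources used here. Symbols were found for 52073 of the 56980 IDs (91.4%), and IDs without one took between 0.249 and 0.724% of each library's counts.

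Genes were filtered with filterByExpr (minimum count 10, minimum total 15), leaving 16648. They were fitted with the robust quasi-likelihood test of edgeR 4.0.16 in R 4.3.3 with TMM scaling and 1 mean per group over all 12 libraries. P-values were adjusted by the Benjamini-Hochberg method over all tested genes, and 0.05 was the threshold. On counts simulated for DOX against DMSO the test recovered 79% of 200 genes changed 2-fold, with 7 false calls. All groups were drawn around the DMSO means, with as many genes raised as lowered. In the data, 6010 genes were called higher and 5213 lower with DOX. The simulation therefore does not measure false calls where many genes change or where scaling matters. Standard errors are the log2 fold change divided by the root of its F statistic. The alternatives were other scalings, DESeq2 1.42.0, limma-voom (limma 3.58.1), no filter, only the groups compared, a replicate block, a threshold of 0.01 and leaving out single libraries.

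The labels give all groups the same replicate numbers without saying what these share. Same-numbered libraries deviated together in every pair (r over 0.1) for CFZ with DMSO (0.30 to 0.42), DOX with DMSO (0.21 to 0.26) and CFZ-DOX with DOX (0.35 to 0.65), so for these comparisons the paired value is given beside a reported result whose call it changes. The pairing thus comes from the data and not from the labels.

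The members, lists and tests were chosen with earlier results of these data known. Genes were named by rule: the 3 highest and 3 lowest members in each comparison, the 3 highest and lowest per length under DMSO, members with a role of their own, and up to 2 called genes in each direction from other lists. Mrps11, Mrpl46, Rps10, the genes listed by class and those beyond these limits, and the gene pairs used for ratios were chosen after their values were seen.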

Additional observations from a re-analysis of the deposited data

Results flagged for a closer look

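For 15 members the effect of both drugs differed from the sum of the single effects in edgeR's interaction test, which tests that difference itself. Values are log2 differences. Those below 0 were Mrpl22 at -1.80, Mrps18c at -1.35, Mrps31 at -1.29, Mrps2 at -1.19, Mrpl46 at -1.13, Mrps22 at -0.996, Mrpl35 at -0.906, Mrps18a at -0.878, Mrpl47 at -0.849, Mrpl3 at -0.719 and Mrpl16 at -0.66. Those above 0 were Mrpl33 at 1.02, Mrpl42 at 1.01, Mrpl52 at 0.89 and Mrps21 at 0.877.

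Of these, 7 below and 2 above 0 held without any one library. Mrpl46, Mrps22, Mrpl47, Mrpl16, Mrps21 and Mrpl52 did not. Groups of 3 libraries are too small for a test of single outlying libraries.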

How the results depend on the processing

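Counts are of members called higher and lower. In CFZ against DMSO the higher were 5 by library size, 9 without the filter, 4 by cytosolic ribosomal protein scaling and 8 at 0.01, and the lower 19 with only the groups compared and 7 at 0.01. Ribosomal scaling gave 0 and 61 (DOX), 0 and 76 (CFZ-DOX against DMSO), 0 and 70 (against CFZ), 0 and 67 (against DOX) and 0 and 40 (interaction). The upper quartile gave 34 and 15, 37 and 19, 38 and 20, 13 higher in CFZ-DOX against DOX, and 9 and 6. For CFZ-DOX against DOX the higher were 13 by DESeq2, 0 by library size, 1 without the filter, 0 with only the groups compared, 12 by size factors and 1 at 0.01, and the lower 16 by library size, 2 with only the groups compared and 4 at 0.01. For the interaction the higher were 11 by DESeq2, 7 by size factors and 2 at 0.01, and the lower 7 by library size and 2 at 0.01. Without DOX 3 and CFZ-DOX 3, chosen after seeing the data, they were 11 and 18 against DOX and 14 and 19 for the interaction. The replicate block gave 11 and 14 against DOX and 9 higher for the interaction. It changed no other count by over 1.5 times and added 4 called members in CFZ and 5 in DOX against DMSO and 11 in CFZ-DOX against DOX. Its correlations did not pair CFZ-DOX with DMSO (0.058 to 0.294) or CFZ (0.0186 to 0.263).

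Leaving out single libraries gave 8 to 13 higher and 6 to 7 lower (CFZ), 15 to 27 and 23 to 28 (DOX), 19 to 25 and 30 to 32 (CFZ-DOX against DMSO), 21 to 26 and 32 to 37 (against CFZ), 1 to 12 and 5 to 14 (against DOX), and 2 to 11 and 7 to 15 (interaction). By structure, with Mrps18a and Mrps30 moved and Mrps36 left out, the small subunit share was 0.08836% with CFZ, 0.0798% with DOX and 0.08902% with DMSO.

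Among all members, ribosomal scaling turned 18 of the 21 called higher with DOX, 23 of 23 with CFZ-DOX, 19 of 24 against CFZ and 6 of 6 against DOX, and the upper quartile turned 3 of 29, 3 of 32 and 11 of 38 called lower with DOX, with CFZ-DOX and against CFZ. Among results of genes named by rule, ribosomal scaling turned Mrps18c (-0.567), Mrps36 (-0.323), Mrpl18 (-0.774) and Mrpl10 (-0.853) with DOX. It turned Mrpl23 (-0.223), Mrpl13 (-0.309), Mrps15 (-0.361) and Mrps36 (-0.735) with CFZ-DOX, and Mrpl9 (-0.0919), Mrpl33 (-0.25) and Mrpl30 (-0.241) against DOX. The upper quartile turned Mrpl2 with DOX (0.0601) and, with CFZ-DOX, Mrps18c (0.467), Mrps30 (0.434), Mrpl18 (0.18), Mrpl10 (0.414) and Mrpl3 (0.0137). The cause was not tested. Of the other alternative values of these results 1496 kept direction and call, 86 lost and 57 gained a call.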
